A study of Homo sapiens with 2 samples.

Results

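The nuclear-encoded genes of respiratory complexes II, III, IV and V were described in NCI-H460, an established line from a human large cell carcinoma of the lung, after transfection with an siRNA against CYP4F11. The genes were taken by symbol from the protein-coding entries of the count table (SDHA to SDHD, and symbols that start with SDHAF, UQCR, COX plus a digit, or ATP5). This gave 64 of 58735 genes, of which 8 belonged to complex II, 9 to complex III, 26 to complex IV and 21 to complex V. The siCYP4F11 group was NCI-H460 cells given the CYP4F11 siRNA in a lipid transfection reagent for 24 h. The siControl group was NCI-H460 cells transfected without that siRNA, and its label names no control sequence. The design text of the series writes NCI-H469 for the line, where the labels of both samples have NCI-H460. Each group was 1 library of the same labelled batch, so no difference below has a replicate check and no p-value was computed.

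Complexes II to IV pass electrons from succinate and ubiquinol to oxygen in the inner mitochondrial membrane, and complexes III and IV pump protons while they do so. Complex V, the ATP synthase, lets the protons flow back and makes ATP. Most of their subunits are encoded in the nucleus, translated in the cytosol and imported, and they join a few subunits encoded by mitochondrial DNA. The transcription factors NRF1 and GABP (an ETS factor) and the coactivators of the PGC-1 family are known regulators of these nuclear genes.

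The libraries held 13002179 counts for siCYP4F11 and 16207785 for siControl. CYP4F11, the target of the siRNA, had 972 counts in siCYP4F11 and 3180 in siControl, a log2 ratio of -1.40 (95% counting interval -1.51 to -1.30). Levels are given as CPM, a gene's count as a share of the TMM-scaled library size. Ratios are siCYP4F11 over siControl, and their intervals cover counting error only. Genes with a mean of at least 1 CPM are called measured, which left 13942 genes. Keratin genes KRT8, KRT18 and KRT19 were high in both libraries (436 to 1427 CPM in siCYP4F11 and 462 to 1746 CPM in siControl), whereas the epithelial genes EPCAM and CDH1 had at most 8 counts. The 4 measured epithelial markers were all below 0, with a median log2 ratio of -0.19. KRT19 was at -0.29 (-0.32 to -0.26) and KRT8 at -0.30 (-0.33 to -0.26). KRT18 was at -0.08 (-0.13 to -0.03) and KRT7 at -0.08 (-0.29 to 0.14). After correction for GC content the median of these 4 markers was -0.07. KRT19 was then at -0.17 and KRT8 at -0.19, while KRT18 and KRT7 were above 0, at 0.03 and 0.05. The 5 leukocyte, 3 endothelial, 5 alveolar or airway and 4 muscle markers were all below 1 CPM. Of 4 fibroblast markers, 3 were measured, with 134 counts over all 4 in siCYP4F11 and 136 in siControl. DCN was the one of them whose interval excluded 0, at a log2 ratio of 0.77 (0.01 to 1.56), and it no longer did so after the GC correction (0.64). The part of these markers' shifts in the results was not tested.

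Most genes of complexes II to V were slightly higher in the siCYP4F11 library. Of the 56 measured members, 49 had a log2 ratio above 0 (87.5%) and 7 below, where 49.2% of all measured genes were above 0. The median of the members was 0.13, which is 1.09-fold, against -0.01 for all measured genes and -0.004 for measured protein-coding genes. In bulk RNA, a change in the share of cells that express a gene and a change in its RNA per cell cannot be told apart. The counting interval lay wholly above 0 for 27 members and wholly below for 3, against 18.6% and 19.2% of all measured genes. The differences were small for single genes. A member was called when its level in one library was at least 25% above that in the other and its interval excluded 0. This gave 5 members higher in siCYP4F11, against 6.92% of all measured genes, and 0 lower, against 8.62%. The called members were COX14, COX20, COX8A, COX7A2 and ATP5MG, a share close to the background. Log2 ratios moved with transcript GC content, so a GC-corrected log2 ratio is given beside a gene where the correction moved a ratio whose interval excluded 0 by over 1.5 times, changed its call or put its interval on the other side of 0. After it, 47 members were above 0 and 9 below, against 49.6% of measured genes above 0. Intervals then lay above 0 for 32 members and below for 3, against 16.7% and 17.1%. The 25% rule then called 4 members higher (COX14, COX8A, ATP5PF and SDHAF1) and 0 lower, against 5.76% and 7.24%. COX20, ATP5MG and COX7A2 were not called after it, at 0.53, 0.31 and 0.26. At a 2-fold threshold and without that correction 0 members were called in either direction, where 0.703% of all measured genes were higher and 1.26% lower.

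**Figure D1:**
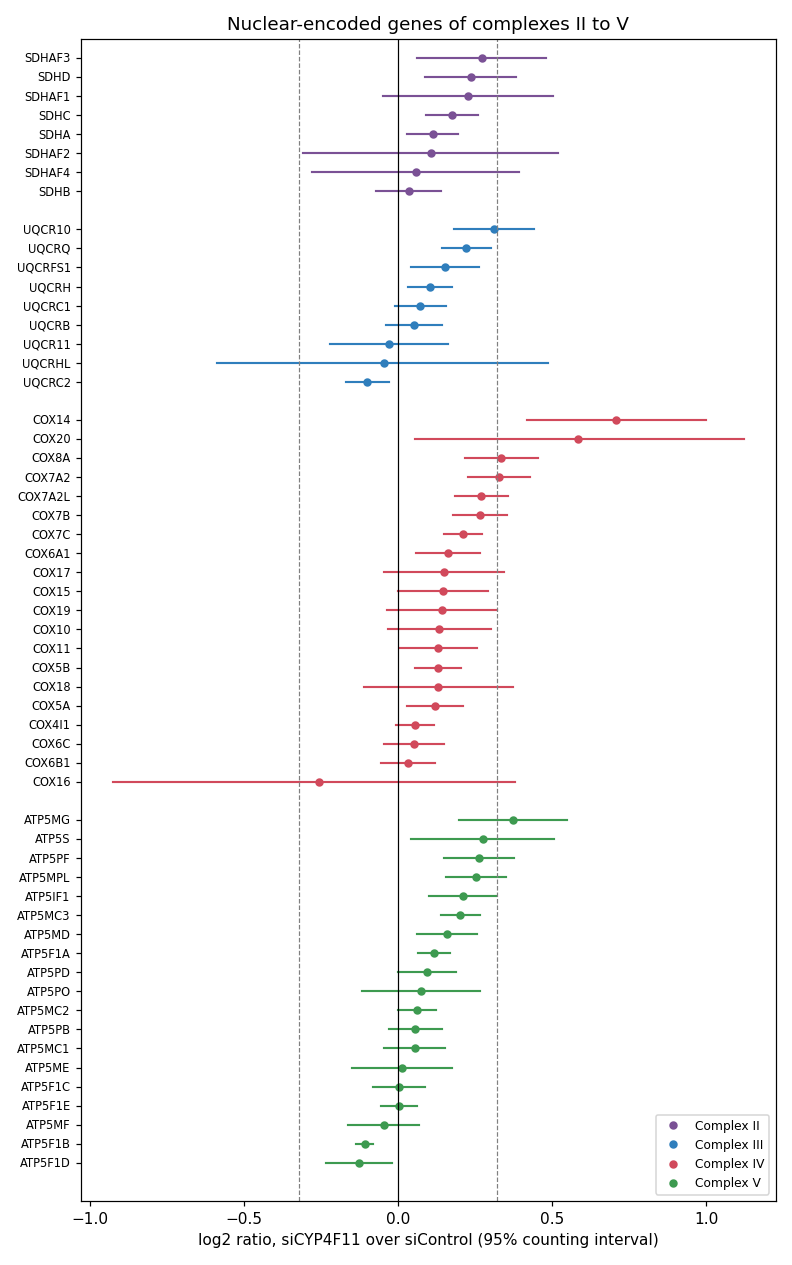
Log2 ratio of siCYP4F11 over siControl (x axis) for each of the 56 measured members (y axis), coloured by complex. Points are the ratios, horizontal lines their 95% counting intervals, and dashed lines mark a difference of 25%; 49 points lie right of 0, and COX14 is furthest right at 0.71.

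The same counts were made at high expression, where counting error is small. Of the 39 members with a mean of at least 50 CPM, 35 were above 0 (89.7%), where 50.2% of the 4265 protein-coding genes at that level were above 0. Their intervals lay above 0 for 22 members and below 0 for 3, against 29.4% and 29.0% of those genes. The 25% rule called 2 of the 39 higher and 0 lower, against 3.82% and 4.97%. The members were also close to each other, with an SD of log2 ratios of 0.117 over the 39 and 0.193 over the other 4226 genes at that level. Summed over all 64 members, the counts were 104070 in siCYP4F11, or 0.800% of the library (exact 95% interval 0.796% to 0.805%), and 122070 in siControl, or 0.753% (0.749% to 0.757%). ATP5F1B alone held 0.142% of the siCYP4F11 library and 0.152% of the siControl library. Without it the members took 0.658% of the siCYP4F11 library and 0.601% of the siControl library.

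Some features that did not enter the choice of the members were set beside those of other genes. The main transcripts of the measured members were short, with a median of 1382 bases against 3004 bases for all measured genes, while their median GC content was 47.3% against 48.5%. The 64 genes were spread over 21 chromosomes. Promoter windows of RefSeq on GRCh38.p14, from 250 bases before to 50 after the RefSeq start, were found for 48 members and searched on both strands. The 48 members were not held to 50 CPM, and some were below 1 CPM. Letters of the ETS core bound by GABP (CCGGAAG) were in 19 of these (39.6%). The share was 14.2% of 15842 protein-coding promoters, and 22.4% of 3512 promoters of other genes with at least 50 CPM. The palindrome of NRF1 was in 4 members (8.33%), against 1.75% and 2.65% of the same sets. The YY1 letters AAGATGGCG were in 4 members (8.33%, against 2.74% and 5.15%). The Sp1 letters GGGGCGGGG were in 6 (12.5%, against 22.4% and 28.2%), and the NF-Y letters CCAAT in 19 (39.6%, against 36.4% and 37.2%). The end of the ETS letters, AAG, can also be the start of the YY1 letters. The 19 measured members with the ETS letters had a median log2 ratio of 0.13, and the 25 without them 0.12. The window rested on a start within 100 bases of the main GENCODE transcript start in 34 members, and 15 of those held the ETS letters.

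A window per complex is shown because each carries the ETS letters before the RefSeq start and belongs to a member whose interval lay above 0. Each runs 5′ to 3′ over the 250 bases before the RefSeq start, and capitals mark NRF1, ETS and YY1 matches. SDHD lies on the plus strand (chr11:112086623-112086872), with the NRF1 palindrome 110 to 101 and ETS letters 77 to 71 bases before the start. UQCRQ lies on the plus strand (chr5:132866392-132866641), with ETS letters 54 to 48 bases before it. COX8A lies on the plus strand (chr11:63974370-63974619), with ETS letters 18 to 12 bases before it. ATP5PF lies on the minus strand (chr21:25735055-25735304), with YY1 letters 57 to 49 and ETS letters 30 to 24 bases before it. Its RefSeq start lies 619 bases downstream of its main GENCODE start, and the others lie 13 to 100 bases downstream of theirs. The ETS letters of SDHD and UQCRQ and the whole ATP5PF window therefore lie inside the deposited gene bounds. Those of COX8A straddle its deposited start, so these letters were not shown to lie upstream of transcription. ATP5PF overlaps GABPA, the gene of the GABP subunit that binds DNA, on the opposite strand.
SDHD: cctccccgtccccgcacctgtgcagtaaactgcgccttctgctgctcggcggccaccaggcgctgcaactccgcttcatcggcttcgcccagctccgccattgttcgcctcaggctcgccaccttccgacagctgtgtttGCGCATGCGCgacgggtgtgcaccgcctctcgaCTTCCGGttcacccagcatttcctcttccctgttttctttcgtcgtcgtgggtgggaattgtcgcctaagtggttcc
UQCRQ: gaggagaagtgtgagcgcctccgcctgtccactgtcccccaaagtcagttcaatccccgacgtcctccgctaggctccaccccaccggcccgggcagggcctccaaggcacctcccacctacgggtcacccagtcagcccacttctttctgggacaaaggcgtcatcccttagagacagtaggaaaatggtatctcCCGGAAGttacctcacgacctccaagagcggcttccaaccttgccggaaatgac
COX8A: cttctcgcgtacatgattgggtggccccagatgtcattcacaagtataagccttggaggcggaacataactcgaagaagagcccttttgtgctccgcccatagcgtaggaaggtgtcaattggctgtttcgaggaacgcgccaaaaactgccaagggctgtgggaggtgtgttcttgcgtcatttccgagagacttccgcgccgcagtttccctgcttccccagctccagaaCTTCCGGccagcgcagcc
ATP5PF: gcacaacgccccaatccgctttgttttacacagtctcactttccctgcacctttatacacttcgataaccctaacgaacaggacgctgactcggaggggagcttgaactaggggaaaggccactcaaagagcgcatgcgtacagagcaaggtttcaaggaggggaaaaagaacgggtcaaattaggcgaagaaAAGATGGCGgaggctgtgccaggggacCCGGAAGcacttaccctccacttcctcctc

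Complex II, succinate dehydrogenase, links the citric acid cycle to the chain and has no subunit encoded in mitochondrial DNA. All 8 of its genes were above 0, with a median log2 ratio of 0.14 and a range from 0.03 to 0.27. SDHA, the flavoprotein with the active site, had 2210 counts (169 CPM) in siCYP4F11 and 2528 counts (157 CPM) in siControl, a log2 ratio of 0.11 (0.03 to 0.20). The membrane anchors were higher in siCYP4F11 as well. SDHC had 2134 counts (163 CPM) in siCYP4F11 and 2338 counts (145 CPM) in siControl, at 0.17 (0.09 to 0.26). SDHD, whose RefSeq window is shown above, had 733 counts (56.1 CPM) in siCYP4F11 and 770 counts (47.7 CPM) in siControl, at 0.24 (0.09 to 0.38). The GC-corrected ratios of these 3 subunits were 0.19 for SDHA, 0.11 for SDHC and 0.15 for SDHD. The iron-sulfur subunit SDHB had the highest level per kilobase of the 4 subunits in both libraries. It had 1339 counts in siCYP4F11 and 1617 in siControl, and its ratio was within counting error of 0, at 0.03 (-0.07 to 0.14). Of the assembly factors, SDHAF3, which helps to mature the iron-sulfur subunit, had 373 counts in siCYP4F11 and 382 in siControl and was at 0.27 (0.06 to 0.48). SDHAF1, SDHAF2 and SDHAF4 were at 0.23, 0.11 and 0.06, with intervals that included 0. SDHAF1, which also serves the iron-sulfur subunit, was called higher after the GC correction, at 0.36.

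Complex III, the cytochrome bc1 complex, went both ways. Of its 9 members 6 were above 0 and 3 below, with a median log2 ratio of 0.07. UQCR10, a small subunit, had 970 counts (74.3 CPM) in siCYP4F11 and 967 counts (59.9 CPM) in siControl, a log2 ratio of 0.31 (0.18 to 0.44). It was just under the 25% threshold, and its raw reads were more numerous in the shallower siCYP4F11 library. UQCRQ, a small ubiquinone-binding subunit, had 2426 counts (186 CPM) in siCYP4F11 and 2572 counts (159 CPM) in siControl, at 0.22 (0.14 to 0.30). UQCRFS1, the Rieske iron-sulfur protein that passes electrons on, had 1259 counts in siCYP4F11 and 1401 in siControl, at 0.15 (0.04 to 0.26). The hinge protein UQCRH had 2918 counts in siCYP4F11 and 3356 in siControl, at 0.10 (0.03 to 0.18). These 4 genes were the members of complex III with intervals above 0, while the core subunits differed in sign. UQCRC2 was lower in siCYP4F11, with 2834 counts (217 CPM) in siCYP4F11 and 3756 counts (233 CPM) in siControl, at -0.10 (-0.17 to -0.03), while UQCRC1 was at 0.07 (-0.01 to 0.15), or 0.18 with an interval above 0 after the GC correction. UQCRB was at 0.05 and UQCR11 at -0.03, both within counting error of 0, and each had the other sign after the GC correction (-0.07 and 0.03). UQCRHL, a copy of UQCRH, had 54 counts in siCYP4F11 and 69 in siControl, at -0.04 (-0.59 to 0.49).

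In complex IV, cytochrome c oxidase, 19 of 20 measured members were above 0, with a median log2 ratio of 0.14, and 18 were above 0 after the GC correction. The 25% rule called 4 of the 20 higher, where it called 6.92% of all measured genes, and 2 of these 4 (COX14 and COX8A) were called after the GC correction. All 10 widely expressed subunits were above 0, from 0.03 to 0.34, and 7 had intervals wholly above 0, while COX6C was at -0.02 after the GC correction. COX8A, a small subunit of the membrane part, had 1156 counts (88.6 CPM) in siCYP4F11 and 1133 counts (70.2 CPM) in siControl, a log2 ratio of 0.34 (0.22 to 0.45). Like UQCR10, it had more raw reads in the shallower library. The gene lies on GRCh38 chromosome 11, 63974607 to 63976543, plus strand, and 27.7% of its 50-base words are shared with AP000721.1, which had 0 counts in both libraries. COX7A2, the widely expressed form of subunit VIIa, had 1625 counts (124 CPM) in siCYP4F11 and 1602 counts (99.2 CPM) in siControl, at 0.33 (0.23 to 0.43) (chromosome 6, 75237675 to 75250323, minus strand). COX7B had 2111 counts (162 CPM) in siCYP4F11 and 2170 counts (134 CPM) in siControl, at 0.27 (0.18 to 0.35). COX7C had 4010 counts (307 CPM) in siCYP4F11 and 4283 counts (265 CPM) in siControl, at 0.21 (0.15 to 0.27). After the GC correction COX7C was at 0.10, outside its uncorrected interval, and COX7A2 at 0.26, under the 25% threshold.

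The remaining subunits of complex IV differed less. COX6A1, COX5B and COX5A were at 0.16, 0.13 and 0.12 with intervals above 0. COX4I1, which carries a regulatory site for ATP, had 3903 counts in siCYP4F11 and 4647 in siControl, at 0.05 (-0.01 to 0.12). COX6C and COX6B1 were at 0.05 and 0.03, within counting error of 0. The GC-corrected ratios of COX4I1 and COX6B1 were 0.14 and 0.11, with intervals above 0. COX7A2L, a relative of subunit VIIa that holds complexes III and IV together in supercomplexes, had 2127 counts (163 CPM) in siCYP4F11 and 2181 counts (135 CPM) in siControl, at 0.27 (0.18 to 0.36).

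Tissue-restricted isoforms of complex IV were at or near 0 reads in both libraries. COX4I2, COX6A2 and COX7B2 had 0 reads in each, and a floor of 3 counts corresponded to 0.230 CPM in siCYP4F11 and 0.186 CPM in siControl. COX7A1, an isoform of heart and skeletal muscle, had 6 counts in siCYP4F11 and 10 in siControl. COX6B2, a testis isoform, had 4 counts in siCYP4F11 and 3 in siControl. COX8C, also known from testis, had 3 counts in siCYP4F11 and 0 in siControl. No direction can be read for these.

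Assembly factors of complex IV insert its haem and copper and guide its mitochondrially encoded subunits. Of 9 measured, 8 were above 0. COX14, which acts in the early maturation of subunit COX1, had 230 counts (17.6 CPM) in siCYP4F11 and 174 counts (10.8 CPM) in siControl, a log2 ratio of 0.71. This was the furthest of the measured members from 0, at 163% of the siControl level (134% to 200.2%), and the gene lies on chromosome 12, 50111979 to 50120457, plus strand. COX20, a chaperone of subunit COX2, had 68 counts (5.21 CPM) in siCYP4F11 and 56 counts (3.47 CPM) in siControl, at 0.58 (0.05 to 1.12). Of its 50-base words, 67.9% are shared with HNRNPU on the opposite strand, which had 13206 counts in siCYP4F11 and 17985 in siControl. After the GC correction COX20 was at 0.53, with an interval that included 0. COX11, which places copper in the complex, was at 0.13 (0.01 to 0.26), but at 0.02 after the GC correction, with an interval that included 0. COX10, COX15, COX17, COX18 and COX19 lay from 0.13 to 0.15, each with an interval that included 0. COX10 and COX19 had intervals above 0 after the GC correction, at 0.17 and 0.21. COX16, which helps to assemble subunit COX2, was the only measured member of complex IV below 0. It had 35 counts in siCYP4F11 and 52 in siControl, at -0.26 (-0.93 to 0.38).

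**Figure D2:**
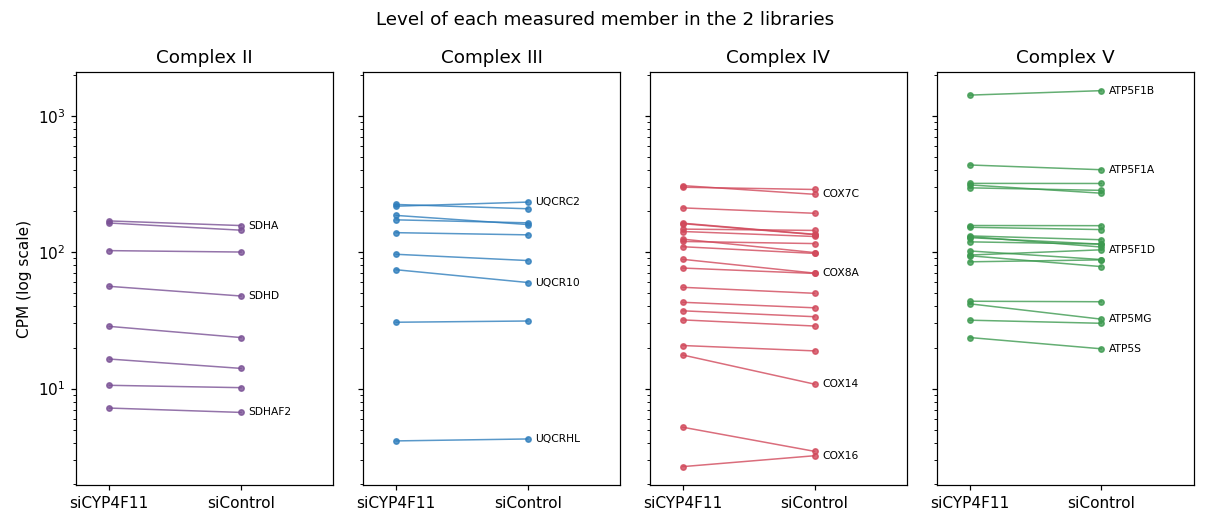
Level of each measured member in CPM on a log axis, with siCYP4F11 at the left and siControl at the right of each panel, a panel per complex and a line per gene. ATP5F1B stands above all other members at 1415 CPM in siCYP4F11 and 1525 CPM in siControl, and it is 1 of the 7 members with a higher level in siControl.

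In complex V, 16 of 19 measured members were above 0, with a median log2 ratio of 0.08, and the catalytic part lay near 0. The 5 genes of the head and central stalk had a median of 0.002, which was -0.06 after correction for GC content. ATP5F1B, the catalytic beta subunit, had 18469 counts (1415 CPM) in siCYP4F11 and 24619 counts (1525 CPM) in siControl. Its log2 ratio was -0.11 (-0.14 to -0.08), or -0.07 after the GC correction, and the gene lies on chromosome 12, 56638175 to 56646068, minus strand. ATP5F1A, the alpha subunit that alternates with it in the head, was higher in siCYP4F11. It had 5681 counts (435 CPM) in siCYP4F11 and 6485 counts (402 CPM) in siControl, at 0.12 (0.06 to 0.17). ATP5F1D, the delta subunit of the central stalk, had 1243 counts (95.2 CPM) in siCYP4F11 and 1679 counts (104 CPM) in siControl, at -0.13 (-0.23 to -0.02), but was at 0.01 after the GC correction. The gamma and epsilon subunits ATP5F1C and ATP5F1E were at 0.004 and 0.002, within counting error of 0. After the GC correction they were at -0.06 and -0.12, and the interval of ATP5F1E lay below 0.

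The c-ring, which turns as protons pass, is built from 1 mature protein made by 3 genes. ATP5MC3 had 4061 counts (311 CPM) in siCYP4F11 and 4364 counts (270.3 CPM) in siControl, a log2 ratio of 0.20 (0.14 to 0.26). ATP5MC2 had 3863 counts in siCYP4F11 and 4578 in siControl, at 0.06, and ATP5MC1 had 1553 counts in siCYP4F11 and 1850 in siControl, at 0.05, both with an interval that included 0. The intervals of ATP5MC3 and ATP5MC2 did not overlap, but this did not hold after the GC correction. The 3 genes were then at 0.12 for ATP5MC3, 0.15 for ATP5MC2 and 0.13 for ATP5MC1, each with an interval above 0. The order of their levels depended on the length used. In CPM per kilobase of the main transcript, ATP5MC1 was highest (194 in siCYP4F11 and 187 in siControl), then ATP5MC2 (152 in siCYP4F11 and 145 in siControl) and ATP5MC3 (56.7 in siCYP4F11 and 49.3 in siControl). Per kilobase of the deposited length, ATP5MC2 was highest (74.1 in siCYP4F11 and 71.1 in siControl), with ATP5MC3 (45.9 in siCYP4F11 and 39.9 in siControl) and ATP5MC1 (45.5 in siCYP4F11 and 43.8 in siControl) below it.

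The membrane and stalk subunits of complex V included the remaining called member. ATP5MG, subunit g, had 546 counts (41.8 CPM) in siCYP4F11 and 521 counts (32.3 CPM) in siControl, a log2 ratio of 0.37 (0.20 to 0.55), or 0.31 after the GC correction, just under the threshold. The gene lies on chromosome 11, 118401154 to 118431496, plus strand. The small subunit ATP5MPL had 1696 counts in siCYP4F11 and 1760 in siControl, at 0.25 (0.16 to 0.35), and ATP5MD, which is needed for stable ATP synthase dimers, had 1667 counts in siCYP4F11 and 1847 in siControl, at 0.16 (0.06 to 0.25). ATP5MF and ATP5ME, subunits f and e, were at -0.05 and 0.01, within counting error of 0, and ATP5ME shares 45.5% of its 50-base words with MYL5. In the peripheral stalk, which holds the head still, ATP5PF stood above the others. It had 1228 counts (94.1 CPM) in siCYP4F11 and 1265 counts (78.4 CPM) in siControl, at 0.26 (0.15 to 0.38), and was just past the threshold after the GC correction (0.32), while 13.5% of its words are shared with GABPA. ATP5PB, ATP5PD and ATP5PO were at 0.06, 0.09 and 0.08 with intervals that included 0.

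The regulatory and minor genes of complex V were also above 0 where they were measured. ATP5IF1, the inhibitor that stops the enzyme from hydrolysing ATP in reverse, had 1332 counts (102 CPM) in siCYP4F11 and 1424 counts (88.2 CPM) in siControl, at 0.21 (0.10 to 0.32). ATP5S, coupling factor B, had 309 counts in siCYP4F11 and 316 in siControl, at 0.27 (0.04 to 0.50), but at 0.18 after the GC correction, with an interval that included 0. ATP5MGL, a copy of ATP5MG, had 1 count in siCYP4F11 and 0 in siControl. The readthrough gene ATP5MF-PTCD1 had 4 counts in siCYP4F11 and 2 in siControl.

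Levels between members were compared in CPM per kilobase of the deposited gene length. ATP5F1B was the highest (609 in siCYP4F11 and 657 in siControl). COX8A followed (175 in siCYP4F11 and 138 in siControl), then UQCRH (159 in siCYP4F11 and 148 in siControl), COX6B1 (158 in siCYP4F11 and 154 in siControl), COX7C (154 in siCYP4F11 and 133 in siControl) and COX5B (146 in siCYP4F11 and 134 in siControl). In siControl COX8A stood below UQCRH and COX6B1, so the order just below ATP5F1B differed between the libraries. The deposited lengths are those of whole gene models, and they reach 10908 bases for ATP5F1A. Per kilobase of the main transcript ATP5F1B was again first (769 in siCYP4F11 and 829 in siControl), followed by UQCRH (370.1 in siCYP4F11 and 344 in siControl) and COX4I1 (342 in siCYP4F11 and 329.8 in siControl). The lowest measured member per deposited kilobase was COX20 (1.07 in siCYP4F11 and 0.713 in siControl), and COX16 (1.44 in siCYP4F11 and 1.73 in siControl) was next.

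**Figure D3:**
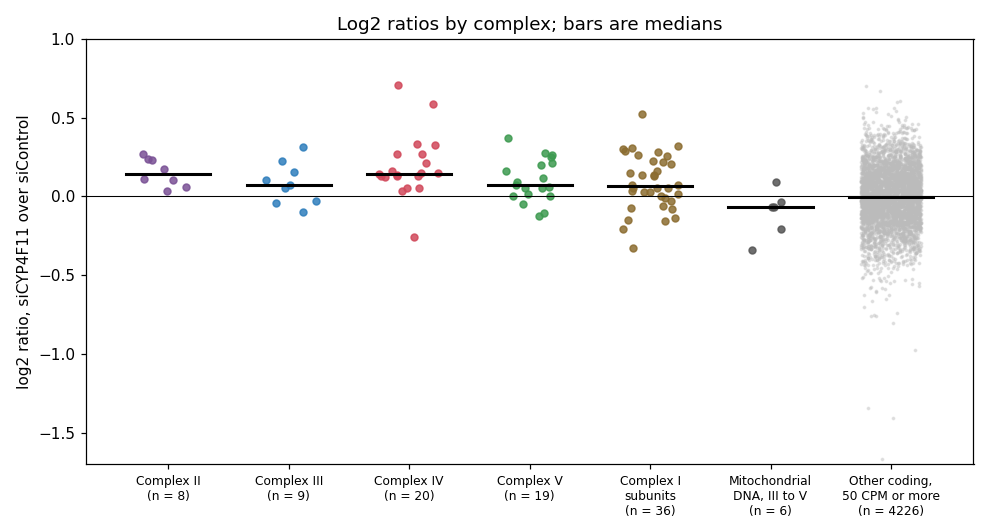
Log2 ratio of siCYP4F11 over siControl (y axis) for the measured genes of each complex, the subunits of complex I, the mitochondrially encoded subunits of complexes III to V, and other protein-coding genes with at least 50 CPM. Points are genes and bars are medians, which lie at 0.14, 0.07, 0.14 and 0.08 for complexes II to V and at -0.001 for the other coding genes.

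Other genes of the same complexes, taken from a list, went both ways. Of 8 further complex III genes 4 were above 0 and 4 below, with a median log2 ratio of -0.01. The median of these genes was 0.06 after the GC correction. The electron carrier CYCS was at 0.11 (0.06 to 0.16) and the Rieske protein chaperone LYRM7 at 0.29 (0.11 to 0.46). After the GC correction they were at 0.04 and 0.15, with intervals that included 0. The assembly factors UQCC1 and UQCC3 were lower in siCYP4F11, at -0.15 (-0.28 to -0.01) and -0.55 (-0.84 to -0.26), and UQCC3 passed the 25% rule with 153 counts in siCYP4F11 and 277 in siControl. The GC-corrected ratio of UQCC1 was -0.10, with an interval that included 0. Of 17 measured complex IV genes of the list 10 were above 0, with a median of 0.16, or 0.10 after the GC correction. NDUFA4, a subunit of complex IV despite its name, was called higher at 0.33 (0.25 to 0.40), as was the assembly factor CMC1 at 0.37 (0.15 to 0.60). Neither was called after the GC correction, at 0.23 for NDUFA4 and 0.19 for CMC1. SURF1, another assembly factor, was at 0.31 (0.11 to 0.51) and was called higher only after the GC correction, at 0.40. The assembly factor PET100 was called lower, with 14 counts in siCYP4F11 and 34 in siControl, at -0.94 (-1.99 to -0.04), but its GC-corrected interval included 0 (-0.86). COA7 was at -0.16 (-0.30 to -0.02). Of 5 measured complex V genes 3 were above 0, with a median of 0.04, or 0.12 after the GC correction. TMEM70, which helps to assemble the c-ring, was called higher at 0.43 (0.23 to 0.62), and the assembly factor ATPAF1 was at 0.18 (0.03 to 0.34), or 0.15 after the GC correction, with an interval that included 0.

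The mitochondrially encoded subunits were mostly below 0. Of 6 genes of complexes III to V, 1 was above 0 and 5 below, with a median log2 ratio of -0.07. The median was -0.10 after the GC correction. MT-CO1, the catalytic subunit of complex IV, had 184798 counts in siCYP4F11 and 214473 in siControl, at 0.09 (0.08 to 0.10). MT-CO3 had 45663 counts in siCYP4F11 and 65038 in siControl, at -0.20 (-0.22 to -0.19). MT-CYB, cytochrome b of complex III, was at -0.07 (-0.09 to -0.05), and MT-ATP8 was called lower at -0.34 (-0.42 to -0.26). The summed counts of the 6 genes hardly differed as shares of the total counts, at 2.76% of the siCYP4F11 library and 2.75% of the siControl library. With TMM-scaled library sizes instead, their log2 ratio was -0.003 (-0.009 to 0.004). Of 36 measured complex I subunits 26 were above 0 (72.2%), with a median of 0.07, or 0.09 after the GC correction. The difference between these sets and complexes II to V was not tested, since each group had 1 library.

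Known regulators of respiratory genes had a median log2 ratio of -0.05 over 13 genes, 5 above 0 and 8 below. Their median was -0.04 after the GC correction. PPARGC1B, a PGC-1 coactivator, was called lower, with 60 counts in siCYP4F11 and 146 in siControl, at -0.97 (-1.44 to -0.53). YY1 was at -0.21 (-0.29 to -0.12), and POLRMT, the mitochondrial RNA polymerase, at -0.26 (-0.42 to -0.11). TFAM, which packages and transcribes mitochondrial DNA, was higher in siCYP4F11, at 0.28 (0.18 to 0.38). The GC-corrected ratios were 0.16 for TFAM and -0.13 for POLRMT, whose interval then included 0. NRF1, GABPA and PPARGC1A were at -0.03, 0.13 and -0.05, each with an interval that included 0.

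Log2 ratios moved with GC content across the libraries. Over the 4265 protein-coding genes with at least 50 CPM the Spearman correlation of log2 ratio with transcript GC content was -0.48, across genes that share both libraries. Over the 13936 measured genes with a GC value it was -0.32, and over the 56 measured members -0.14. Within each GC band a larger share of the 56 measured members than of other coding genes with at least 50 CPM was above 0. The members were not held to 50 CPM here. Below 45% GC, 20 of 21 members were above 0 (median 0.17), where 72.1% of other coding genes with at least 50 CPM were (median 0.09). From 45% to 50%, it was 12 of 14 members (median 0.12), against 51.2% of the other genes (median 0.01). From 50% to 55%, it was 8 of 11 members (median 0.13), against 34.8% (median -0.06). From 55% up, it was 9 of 10 members (median 0.07), against 23.8% (median -0.11). After the lowess correction for GC content the member median was 0.12. The medians of complexes II to V were then 0.13, 0.10, 0.16 and 0.10.

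**Figure D4:**
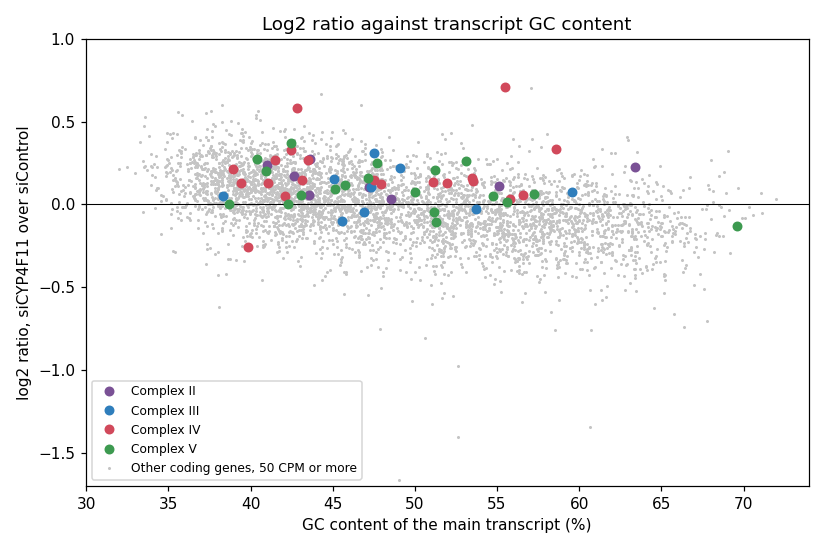
Log2 ratio of siCYP4F11 over siControl (y axis) against GC content of the main transcript in percent (x axis). Coloured points are the 56 measured members by complex and grey points the other protein-coding genes with at least 50 CPM, which slope downward; in the band from 55% GC up, 9 of 10 members lie above 0.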

How the data were processed

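Poly-A RNA was sequenced from 1 siCYP4F11 and 1 siControl library, both made with a dUTP kit that keeps the strand, per the labels' protocols. The table as deposited by the authors gives whole-number counts with no normalization and, per the file headers, a length in bases for every gene. Per the submitters' processing notes, featureCounts 2.0.6 and edgeR 4.0.16 were used along with fastp, HISAT2 2.2.1 and the GRCh38 genome; what each did, and whether counting used the strand, is not given in the sources used here. Overlapping genes on either strand may therefore hold each other's reads. All 58735 identifiers matched GENCODE release 29. The members and lists were chosen with earlier results of these data known.

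Libraries were scaled by TMM (edgeR 4.0.16, R 4.3.3), and 0.5 was added to each count for log2 ratios. The 95% intervals are exact Clopper-Pearson bounds on the part of a gene's reads that came from siCYP4F11, turned into ratios. They cover counting error only, since they rest on 1 count per library. PCR copies cannot be told from separate molecules here, so the intervals may be too narrow even for counting error. Without replicates no quasi-likelihood test was run. The calculation was tested on simulated Poisson counts with known folds planted. These hold counting error only, as the intervals assume, so the test could not check variation between libraries. GC content and length came from a main transcript per gene (APPRIS principal, or else the longest), and shared 50-base words were counted over all GENCODE transcripts. Within each complex and role, the up to 4 members furthest from 0 in each direction (by the interval bound nearest 0), the highest by level per length and the tissue-restricted isoforms were given in full, with up to 3 genes a direction from other lists. Other genes with values were chosen after these were seen. DESeq2 1.42.0 size factors served as an alternative. Python 3.11.15, numpy 2.4.6, scipy 1.17.1, pandas 2.3.3, statsmodels 0.14.6 and matplotlib 3.10.9 were used.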

Additional observations from a re-analysis of the deposited data

How the results depend on the processing

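No paired analysis was possible because each group had 1 library. The member median stayed above 0 under every alternative run, from 0.11 without members that share over 10% of their 50-base words to 0.14 with total counts. Complex medians lay from 0.13 to 0.17 for complex II and 0.01 to 0.10 for complex III. They lay from 0.13 to 0.16 for complex IV and 0.06 to 0.10 for complex V. With the mean in place of the median, complex IV was at 0.19. The lowest value of complex III came from leaving out members that share words. That setting left 34 members, of which 28 were above 0 and 2 (COX14 and COX7A2) were called higher, since fewer genes were counted. The number of members called higher was 1 at 1.5-fold and 0 at 2-fold, which are stricter rules. It was 6 with total counts, which add UQCR10, and 4 with a filter at 5 CPM, with the GC correction or with the correction for gene length. The share of all measured genes called is given above for 2-fold and for the GC correction. It was not computed for the other settings, so their counts show only how the number of called members depends on the rule. Under the GC correction, 11 of 54 genes named by the rule lay outside their uncorrected counting interval, and MT-CO1 did so also with total counts and with the length correction; the cause was not tested. No called gene changed sign. Levels per kilobase of the main transcript were added after the data were seen. Depth limits COX16, COX20 and UQCRHL most among the measured members, with 35 to 69 counts per library.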

Other observations

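Pseudogenes of the members held few reads. The table has 109 pseudogenes with symbols of these families, of which 29 had reads. Together they held 321 counts in siCYP4F11 and 366 in siControl, beside 104070 and 122070 counts of the members in these libraries. The 5 with a mean of at least 1 CPM were SDHAP1, SDHAP3, UQCRFS1P1, COX20P1 and COX6A1P2. COX6A1P2, with 78 counts in siCYP4F11 and 64 in siControl, was at 0.59 on the log2 scale (0.10 to 1.09). Of the 50-base words of COX6A1, which was at 0.16, 14.0% are shared with it.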
